A study of Mus musculus with 13 samples.

Results

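The genes of the killing machinery described here are 10 of the 56748 genes in the deposited count table: the granzymes Gzma, Gzmb, Gzmk and Gzmm, the pore former Prf1, the granule proteins Nkg7 and Ctsw, the death ligand Fasl, and the protease inhibitors Serpinb9 and Serpinb6b. They were picked by symbol, with earlier results of these data known, and all 10 passed the filter on low counts, which left 14059 genes for testing. Their RNA was measured by sequencing of total RNA in 13 libraries of splenic CD4+ helper T cells.

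All mice carried a Foxp3-Thy1.1 reporter allele together with either an Eomes-GFP reporter or the genotype Eomes-TKO. How the TKO allele was made is not in the labels. Every animal received 50 µg of an NK1.1-depleting antibody on days -2 and 5 and Vk12653 cells, a mouse multiple myeloma line, on day 0. A 4-1BB agonist antibody or control IgG followed at 20 µg on days 10, 13 and 16, and spleens were taken on day 18. The gate kept TCR+ CD4+ cells without the Foxp3 reporter, so regulatory T cells marked by Thy1.1 were left out of all groups. Treated Eomes-GFP cells were divided by the reporter into a GFP+ fraction (3 libraries) and a GFP- fraction (3 libraries). The other groups were not divided: Eomes-GFP with control IgG (2 libraries), Eomes-TKO with the 4-1BB antibody (2 libraries) and Eomes-TKO with control IgG (3 libraries). A treated Eomes-GFP group that was not divided is not among the libraries used here, so treated Eomes-TKO cells could be set only beside the fractions. The ages of the mice are not in the labels, and the labels do not state that replicates came from separate animals, so the p-values speak only for the spread among the 13 libraries. In bulk RNA, fewer cells of a type and less RNA per cell cannot be told apart.

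Cytotoxic lymphocytes store granzymes, which are serine proteases, in secretory granules together with perforin, and perforin opens the target cell to them. Granule release at the contact with the target delivers both, while Fas ligand kills through a death receptor without granules. Serpins of the cytosol protect the killer cell from its own proteases. CD4+ T cells usually act as helpers, and those that carry this machinery are called cytotoxic CD4+ cells. Eomes is a T-box transcription factor known for driving killing genes in CD8+ T cells and NK cells.

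Sequences upstream of the start sites show which of these genes carry the letters that T-box factors, Runx factors and AP-1 are known to bind. RefSeq promoters on GRCm38.p6, each 300 bases long, matched 9 of the 10 genes and gave 10 promoters, since Gzmm has 2. Ctsw had no entry. The 250 bases before the start are printed 5′ to 3′ for the 4 genes discussed most below. Capitals mark the T-box letters GGTGTGA, the Runx letters ACCACA and the AP-1 letters TGANTCA, read on both strands, and no match overlapped another. Nkg7 lies at chr7:43436888-43437137 on the plus strand, Gzmk at chr13:113180966-113181215 on the minus strand, Gzmb at chr14:56262335-56262584 on the minus strand and Prf1 at chr10:61297586-61297835 on the plus strand.
Nkg7: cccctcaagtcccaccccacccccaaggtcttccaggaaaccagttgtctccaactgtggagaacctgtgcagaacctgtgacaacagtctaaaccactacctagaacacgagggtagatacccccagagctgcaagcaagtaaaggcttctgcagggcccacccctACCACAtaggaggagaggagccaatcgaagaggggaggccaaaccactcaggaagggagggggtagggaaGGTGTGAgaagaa
Gzmk: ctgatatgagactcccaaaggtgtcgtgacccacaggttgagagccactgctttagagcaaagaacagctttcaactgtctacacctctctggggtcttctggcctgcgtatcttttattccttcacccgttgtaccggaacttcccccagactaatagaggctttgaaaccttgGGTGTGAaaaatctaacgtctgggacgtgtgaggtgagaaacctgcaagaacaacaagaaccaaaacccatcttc
Gzmb: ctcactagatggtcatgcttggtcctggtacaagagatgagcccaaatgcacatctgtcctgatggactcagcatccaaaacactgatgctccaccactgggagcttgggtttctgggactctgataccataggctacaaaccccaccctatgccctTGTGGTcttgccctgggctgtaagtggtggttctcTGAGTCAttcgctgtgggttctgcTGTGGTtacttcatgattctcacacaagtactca
Prf1: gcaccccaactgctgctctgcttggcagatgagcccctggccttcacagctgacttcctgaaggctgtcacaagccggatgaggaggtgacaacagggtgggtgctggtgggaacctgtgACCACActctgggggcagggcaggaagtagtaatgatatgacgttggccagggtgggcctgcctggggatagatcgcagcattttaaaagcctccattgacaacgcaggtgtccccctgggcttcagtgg

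The T-box letters stood in 3 of the 10 promoters and in 3.98% of the 32851 promoters of the same length in the table. Their first base lay 13 bases before the start in Nkg7, 75 before it in Gzmk and 189 before the second start of Gzmm. GENCODE places the first base of Nkg7 at 43437073, so in that annotation the T-box letters of Nkg7 fall inside the gene. It places the first base of Gzmk at 113225908 and that of Gzmm at 79689020, so the whole printed stretch of Gzmk and the stretch before the second start of Gzmm also fall inside their genes there, T-box letters included. The Runx letters stood in 6 of the 10 promoters and in 16.8% of all, among them at 83 bases before the start in Nkg7, 130 in Prf1, and 93 and 34 in Gzmb. AP-1 letters stood in 1 of the 10, at 58 bases before the start of Gzmb, against 7.81% of all promoters. A match is a description of letters and says nothing about binding in these cells.

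On GRCm38, Gzma (chr13:113093825-113100981) and Gzmk (chr13:113171608-113225908) lie on the same strand 70.6 kb apart, and Serpinb6b (chr13:32965209-32979067) and Serpinb9 (chr13:33003250-33017957) lie 24.2 kb apart on the same chromosome. The other genes lie apart from each other, Nkg7 on chromosome 7, Fasl on 1, Prf1 and Gzmm on 10, Gzmb on 14 and Ctsw on 19. Serpinb9 and Serpinb6b have close relatives in the genome, and whether reads were shared with these was not tested. The deposited estimated counts of both were whole numbers in every library.

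The fractions were checked by Eomes, the gene that the reporter follows. In CPM, which are counts brought to one library size, GFP+ libraries 1 to 3 held 570, 706 and 685 of Eomes, whereas GFP- libraries held 3.54, 1.83 and 2.26. The undivided Eomes-GFP control cells held 14.0 and 16.8 CPM, the treated Eomes-TKO cells 3.59 and 8.03 CPM, and the control Eomes-TKO cells 1.36, 2.96 and 3.19 CPM. Under control IgG the Eomes-TKO cells fell by 2.64 on the log2 scale (SE 0.326, adjusted p = 0.0219) against Eomes-GFP cells. That adjusted p was above 0.05 in 4 of the 5 fits that each left out 1 library, where it ranged up to 0.344. Eomes was detected in every Eomes-TKO library.

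Killing genes were far higher in GFP+ than in GFP- cells of the treated animals, the comparison that asks how the Eomes-expressing cells differ. The tests called 8 of the 10 genes higher and 0 lower, where 20.7% of all tested genes were higher and 16.5% lower. Gzmk, Gzmb and Nkg7 differed most. The median log2 difference of the 10 genes was 2.74 against 0.0205 for all tested genes. A rise that was both called and over 4-fold was seen in 3.75% of all tested genes, and in every called gene of the 10 except Ctsw.

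**Figure D1:**
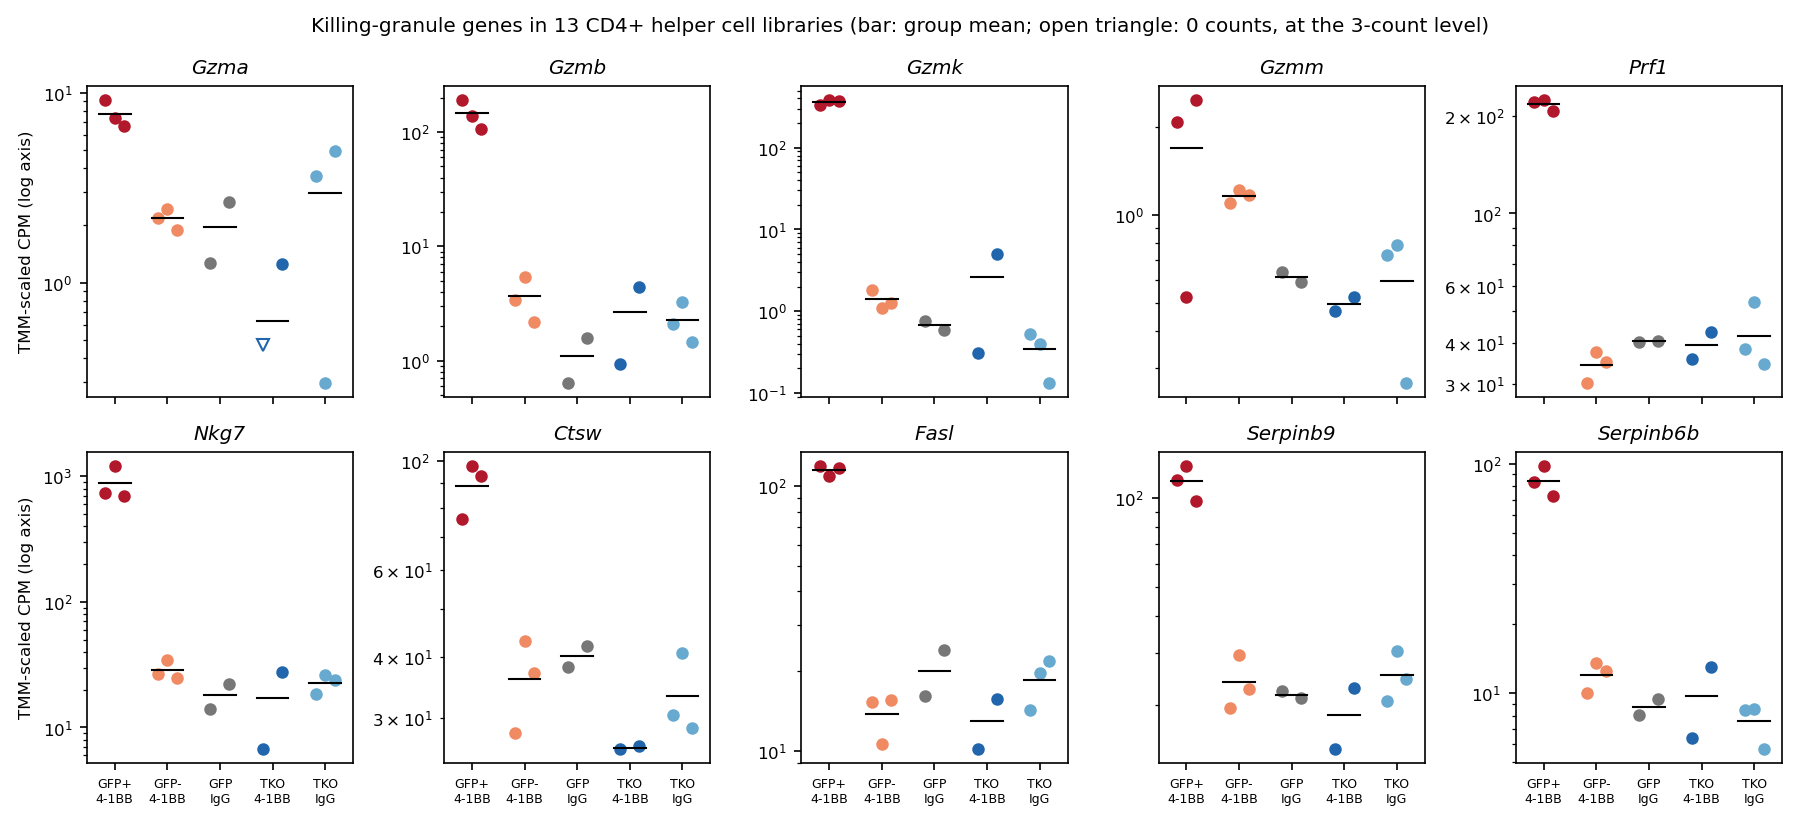
Level of each killing gene in the 13 libraries. Each panel is 1 gene, the vertical axis is TMM-scaled CPM on a log axis with its own range, points are libraries by group, bars are group means, GFP IgG is the undivided Eomes-GFP control, and the open triangle is a library with 0 counts drawn at the level of 3 counts. The 3 GFP+ libraries stand above the other 10 for every gene except Gzmm.

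Gzmk, a granzyme of the trypsin-like kind, reached 337, 382 and 368 CPM in GFP+ cells. GFP- cells held 1.83, 1.10 and 1.26 CPM, and the log2 difference was 8.02 (SE 0.421, adjusted p = 8.92e-08), or 259-fold. The undivided Eomes-GFP control cells held 0.763 and 0.587 CPM, and the control Eomes-TKO cells 0.521, 0.394 and 0.133 CPM. GFP+ cells were thus set apart from all other libraries, of which only 1, replicate 2 of the treated Eomes-TKO cells, exceeded 2 CPM, at 5.01 CPM, while replicate 1 of that group held 0.312 CPM. Levels of Gzmk outside the GFP+ fraction rest on few reads, from 10 counts over the 3 control Eomes-TKO libraries to 50 over the 2 treated ones.

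Gzmb, the granzyme that activates caspases in the target cell, varied more within the GFP+ fraction. Its GFP+ libraries held 190, 139 and 107 CPM, and its GFP- libraries 3.41, 5.36 and 2.17 CPM. The log2 difference was 5.35 (SE 0.43, adjusted p = 2.91e-06), or 40.7-fold. Every one of the 7 undivided libraries was below 5 CPM, with 0.636 and 1.57 CPM in the Eomes-GFP control, 0.937 and 4.38 CPM in treated Eomes-TKO and 2.08, 3.25 and 1.46 CPM in control Eomes-TKO cells.

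The other granzymes were low. Gzma, also trypsin-like and encoded near Gzmk, stood at 9.15, 7.33 and 6.66 CPM in GFP+ cells and at 2.20, 2.44 and 1.90 CPM in GFP- cells. These values did not overlap, but the difference of 1.82 (SE 0.703) had an adjusted p of 0.0598. It passed with DESeq2 (adjusted p = 0.0242), without the filter on low counts (4.4e-05) and with the fractions fitted alone (5.86e-04), and over all alternatives its adjusted p ranged from 4.4e-05 to 0.153. Gzmm, a granzyme with another cutting preference, held 2.08, 0.524 and 2.47 CPM in GFP+ and 1.10, 1.22 and 1.17 CPM in GFP- cells. The fractions overlapped for Gzmm (log2 difference 0.55, SE 0.537, adjusted p = 0.464). Of the 6 other mouse granzymes on the list, Gzmc, Gzmd, Gzme, Gzmf, Gzmg and Gzmn, 0 had enough counts to be tested, and Gzmc was highest at 0.752 CPM in 1 GFP+ library.

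Prf1, which encodes the pore-forming perforin, stood at 220, 223 and 207 CPM in GFP+ cells and at 30.1, 37.4 and 34.9 CPM in GFP- cells. Its log2 difference of 2.67 (SE 0.149, adjusted p = 6.87e-09) was smaller than that of Gzmk or Gzmb, and Prf1 kept a measurable level elsewhere. The 7 undivided libraries held between 34.5 and 53.6 CPM.

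Nkg7, a membrane protein of the granules needed for their release, was the most abundant of the 10 genes per length in both treated fractions, whereas Ctsw was in the other groups. It stood at 740, 1203 and 703 CPM in GFP+ and at 26.6, 34.6 and 24.8 CPM in GFP- cells, a log2 difference of 4.95 (SE 0.456, adjusted p = 2.57e-05), or 30.8-fold. The undivided libraries ran from 6.72 CPM, in replicate 1 of treated Eomes-TKO cells, to 27.6 CPM in replicate 2 of that group. Ctsw, a cysteine protease of killer cells, differed least among the genes that passed. GFP+ libraries held 76.1, 97.4 and 93.3 CPM, GFP- libraries 27.9, 43.01 and 37.0 CPM, and the log2 difference was 1.31 (SE 0.166, adjusted p = 2.44e-05).

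Fasl, the death ligand that binds Fas on the target, stood at 119, 109 and 117 CPM in GFP+ cells. It stood at 15.2, 10.6 and 15.6 CPM in GFP- cells, 8.27-fold lower (log2 difference 3.05, SE 0.21, adjusted p = 5.88e-08). The undivided libraries held 10.2 to 24.0 CPM, so no library outside the GFP+ fraction approached its level.

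Inhibitors rose with the proteases. Serpinb9, the inhibitor of granzyme B, stood at 115, 128 and 98.1 CPM in GFP+ and 19.6, 29.6 and 22.7 CPM in GFP- cells (log2 difference 2.25, SE 0.196, adjusted p = 6.57e-07). Serpinb6b, a relative from the same clade of serpins, stood at 83.3, 97.7 and 72.5 CPM in GFP+ and 10.0, 13.5 and 12.6 CPM in GFP- cells (log2 difference 2.81, SE 0.224, adjusted p = 2.53e-07). The fractions did not overlap for either inhibitor.

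Between genes, levels were compared as CPM per kilobase of the principal transcript. In GFP+ cells Nkg7 led at 1001 ± 316 CPM per kb (SD, n = 3), followed by Gzmk at 353 ± 22.3, Gzmb at 101 ± 29.3, Prf1 at 87.6 ± 3.51, Ctsw at 71.7 ± 9.11, Fasl at 59.3 ± 2.699, Serpinb6b at 38.5 ± 5.75, Serpinb9 at 32.8 ± 4.33, Gzma at 8.79 ± 1.46 and Gzmm at 1.31 ± 0.800. The neighbours Gzmb and Prf1 differed by less than the SD of Gzmb, and Serpinb6b and Serpinb9 by less than the SD of Serpinb6b. In each of the other 4 groups Ctsw and Nkg7 led, Prf1 and Fasl followed, and Gzmk stood at ranks 7 to 10. The ratio of Gzmb to Prf1 per kb was 1.49, 1.08 and 0.892 in the GFP+ libraries, 0.107 to 0.247 in the GFP- libraries and 0.0272 to 0.175 in the undivided ones, with no overlap between GFP+ and the rest. Per kb, Serpinb9 stood at 0.251 to 0.380 times the level of Gzmb in GFP+ cells and at 2.16 to 14.5 times that level in all other libraries. Outside the GFP+ fraction Gzmb rests on few reads, from 21 counts over the Eomes-GFP control libraries to 96 over the GFP- libraries. Both ratios are therefore imprecise there.

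The mix of granzymes differed as well. Gzmk made up 76.1% ± 5.99 (SD, n = 3) of the summed per-kb level of the 4 granzymes in GFP+ cells, Gzmb 21.7% ± 5.73, Gzma 1.89% ± 0.273 and Gzmm 0.287% ± 0.181. In GFP- cells Gzma held 34.3% ± 2.47, Gzmb 33.8% ± 9.11, Gzmk 19.1% ± 5.86 and Gzmm 12.7% ± 2.58. The GFP+ shares rest on 3888 to 4511 granzyme counts per library and those of the other 10 libraries on 11 to 107, so shares outside the GFP+ fraction are imprecise. Without the division by length, Gzmk held 70.3% in GFP+ cells.

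**Figure D2:**
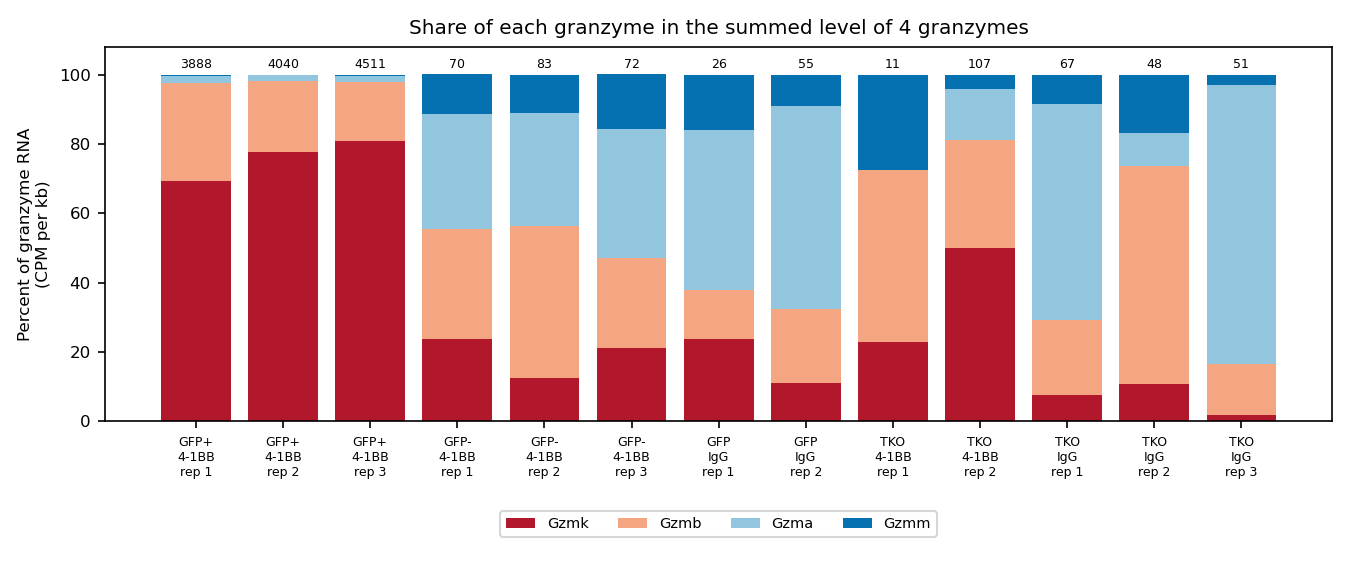
Share of each granzyme in the summed CPM per kb of Gzma, Gzmb, Gzmk and Gzmm, in percent, 1 stacked bar per library, with the number of granzyme counts printed above each bar. Gzmk takes most of each GFP+ bar, while the other 10 bars rest on 107 counts or fewer and differ from each other.

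Against the undivided control cells of Eomes-GFP mice, GFP+ cells had 8 genes higher and 0 lower, where 18.8% of all tested genes were higher and 15.4% lower. Their median log2 difference was 2.46, and that of all tested genes 5.21e-04. This comparison joins treatment and sorting, which cannot be told apart here, and it shares the GFP+ libraries with the comparison above. Gzmk was higher by 9.06 on the log2 scale (SE 0.555, adjusted p = 3.92e-07), Gzmb by 6.97 (SE 0.593, adjusted p = 4.89e-06, and by 7.80 without replicate 2 of the control cells) and Nkg7 by 5.59 (SE 0.568, adjusted p = 5.20e-05). Fasl, Prf1, Serpinb9 and Serpinb6b were higher by 2.51, 2.42, 2.39 and 3.26, and Ctsw by 1.15. Gzma (1.94, SE 0.819, adjusted p = 0.0865) and Gzmm (1.46, SE 0.66, adjusted p = 0.104) did not pass. Gzma passed with DESeq2 (0.0343), without the filter (2.45e-04) and with these groups fitted alone (5.72e-03), and Gzmm passed without GFP+ replicate 2 (1.85, adjusted p = 0.0251). Over all alternatives the adjusted p ranged from 2.45e-04 to 0.351 for Gzma and from 0.0251 to 0.317 for Gzmm.

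Treated GFP- cells were then set beside the undivided control cells, which asks whether killing genes moved in treated cells without the reporter. The test called 0 of the 10 genes, where 0.654% of all tested genes were higher and 0.107% lower. At an unadjusted p below 0.05, edgeR had 2 of the 10 genes and 1231 of all 14059. Those 2 were Gzmb, at 3.65 ± 1.61 CPM (SD, n = 3) against 1.10 ± 0.658 (SD, n = 2) with a log2 difference of 1.62 (SE 0.687, adjusted p = 0.515), and Fasl, with a difference of -0.54 (SE 0.231, adjusted p = 0.496). DESeq2 also called 0. Without the filter on low counts, edgeR called 2 higher, Gzmb and Nkg7, beside 434 higher and 87 lower of all 23638 genes. In the same comparison Eomes fell by 2.61 (SE 0.325, adjusted p = 5.89e-03), a call lost without replicate 2 of the control cells (-2.47, adjusted p = 0.084, the highest over all alternatives). The undivided cells had not been sorted on the reporter.

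In Eomes-TKO mice the 4-1BB antibody was compared with control IgG. The test called 0 of the 10 genes, where 0.0427% of all tested genes were higher and 0% lower. At an unadjusted p below 0.05, edgeR had 1 of the 10 genes, Gzmk, and 506 of all 14059, and DESeq2 called 0 of the 10. Gzmk stood at 0.312 and 5.01 CPM after treatment and at 0.521, 0.394 and 0.133 CPM after control IgG, so the groups overlapped (log2 difference 2.98, SE 0.794, adjusted p = 0.566). That difference rests on replicate 2 of the treated cells: without replicate 1 it was 3.72 with an adjusted p of 1.95e-04, where the lone treated library is assumed to vary like the other groups, and without replicate 2 it was -0.22. It also passed without the filter on low counts (adjusted p = 9.76e-11), and over all alternatives the adjusted p ranged from that value to 1. Replicate 2 also held more Gzmb (4.38 against 0.937 CPM), Nkg7 (27.6 against 6.72 CPM) and Eomes (8.03 against 3.59 CPM) than replicate 1. For the other genes the log2 differences lay between -2.01 for Gzma (SE 0.969) and 0.38 for Serpinb6b (SE 0.269). Leaving out 1 library moved Gzma between -7.64 and -1.20, the first without replicate 2 of the treated cells, where only the library with 0 counts of Gzma remains and the fitted value is no measured size.

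Under control IgG, Eomes-TKO and Eomes-GFP cells were compared. The test called 0 of the 10 genes, and 0 had an unadjusted p below 0.05 in edgeR, against 430 of all 14059. Among all tested genes 0% were higher and 0.0142% lower, and DESeq2 called 0 of the 10. Log2 differences ran from -0.84 for Gzmk (SE 1.10) to 1.01 for Gzmb (SE 0.728). The genes with the smallest SE were Prf1 at 0.06 (SE 0.163), Ctsw at -0.27 (SE 0.186), Serpinb9 at 0.22 (SE 0.221) and Fasl at -0.12 (SE 0.229). Nkg7 stood at 0.31 (SE 0.487), and Gzmm, with few reads, at 0.0017 (SE 0.565). A p that misses the threshold does not show that the genotypes had equal levels.

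**Figure D3:**
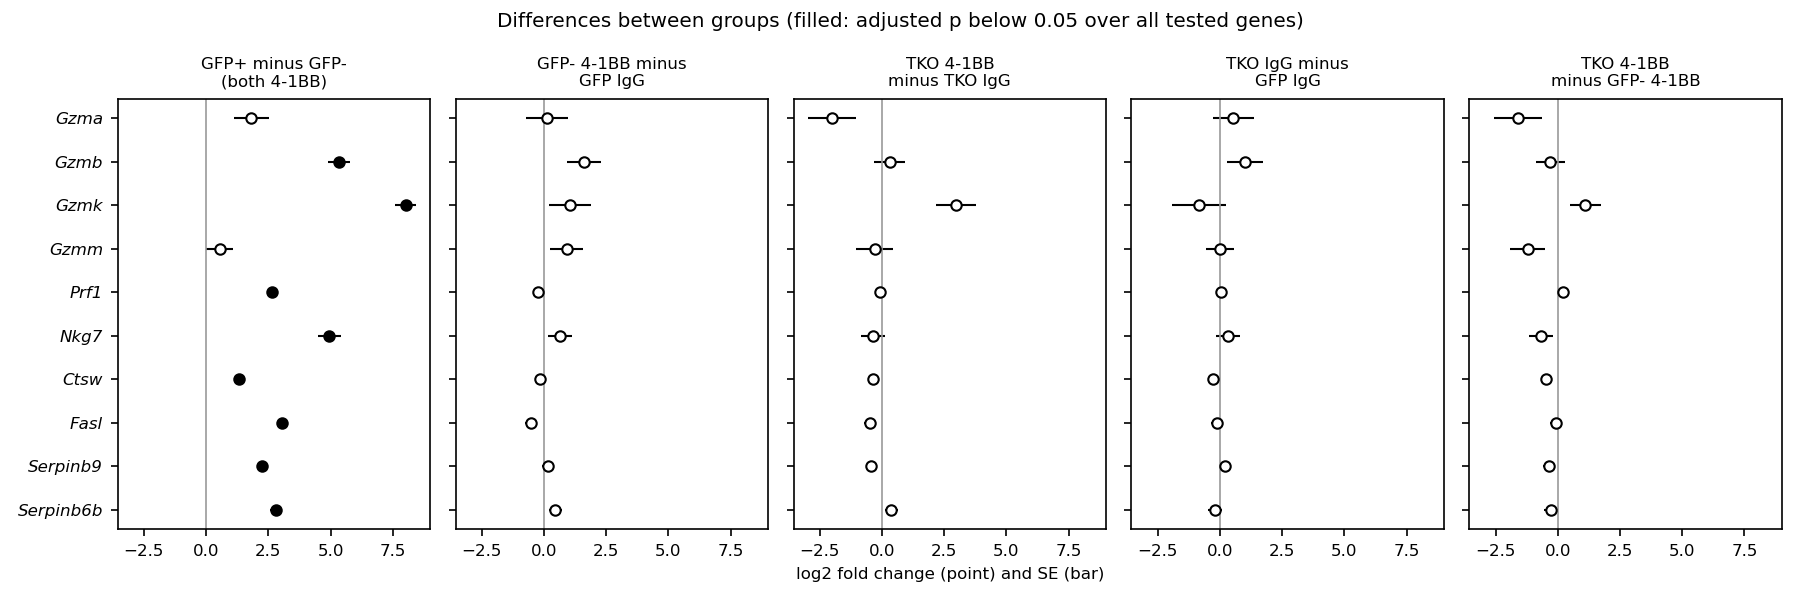
Log2 fold change of each killing gene, with bars of 1 SE, in 5 comparisons: GFP+ with GFP-, GFP- with control, treated with control Eomes-TKO, control Eomes-TKO with control Eomes-GFP, and treated Eomes-TKO with GFP- cells. Filled points, with adjusted p below 0.05, are 8 genes in the first panel and 0 in the other 4, and the comparisons of GFP+ with control and with treated Eomes-TKO cells, where 8 and 9 genes passed, are not drawn.

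Treated Eomes-TKO cells were set beside both treated fractions. These comparisons join genotype and sorting, which cannot be told apart here, and they share their libraries with the comparisons above. Against GFP- cells 0 of the 10 genes were called, where 0.00711% of all tested genes were higher and 0.0356% lower. At an unadjusted p below 0.05, edgeR had 1 of the 10, Ctsw (-0.46, SE 0.193, adjusted p = 0.674), and 980 of all 14059, and DESeq2 called 0 of the 10. Gzmk again depended on 1 library, with a difference of 1.11 (SE 0.616, adjusted p = 0.817) that became 1.84 (adjusted p = 0.0486) without replicate 1 of the treated Eomes-TKO cells and -2.10 without replicate 2, with adjusted p over all alternatives from 0.0202 to 1. Against GFP+ cells 9 of the 10 genes were lower and 0 higher, where 18.8% of all tested genes were lower and 15.7% higher, and the median log2 difference was -3.11. Gzmk was lower by 6.91 (SE 0.466, adjusted p = 8.74e-07), Gzmb by 5.65 (SE 0.531, adjusted p = 1.14e-05), Nkg7 by 5.63 (SE 0.57, adjusted p = 5.58e-05) and Gzma by 3.42 (SE 0.952, adjusted p = 0.0145). Gzma no longer passed without replicate 1 of the treated Eomes-TKO cells, the library with 0 counts of Gzma (-2.58, adjusted p = 0.082). Without replicate 2 the fitted changes were -9.05 for Gzma, -10.12 for Gzmk, -7.26 for Gzmb, -7.04 for Nkg7 and -3.72 for Serpinb6b (-3.08 with all libraries), and that of Gzma then rests on the library with 0 counts and is no measured size. Without replicate 1 they were -6.14 for Gzmk, -5.02 for Gzmb and -4.97 for Nkg7. These calls were kept in both fits for Gzmk, Gzmb and Nkg7. Gzmm did not pass (-1.75, SE 0.695, adjusted p = 0.0662), and it passed without GFP+ replicate 2 (-2.13, adjusted p = 0.0158, range over alternatives 0.0158 to 0.239).

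The genes fell into levels that differed in how much remained outside the GFP+ fraction. Taking the GFP+ mean as 100%, Gzmk stood at 0.0964% to 0.734% in the other 4 groups, Gzmb at 0.756% to 2.51% and Nkg7 at 1.95% to 3.25%. Prf1, Fasl, Serpinb9 and Serpinb6b stood at 8.97% to 22.2% and Ctsw at 29.4% to 45.1%. Gzma stood at 8.11% to 38.3% and Gzmm at 29.3% to 68.8%, both from few reads. Eomes itself, on the same scale, stood at 0.383% to 0.889% in GFP- and Eomes-TKO cells and at 2.36% in the undivided Eomes-GFP control, where Nkg7 stood at 2.05%, Gzmb at 0.756% and Gzmk at 0.186%.

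**Figure D4:**
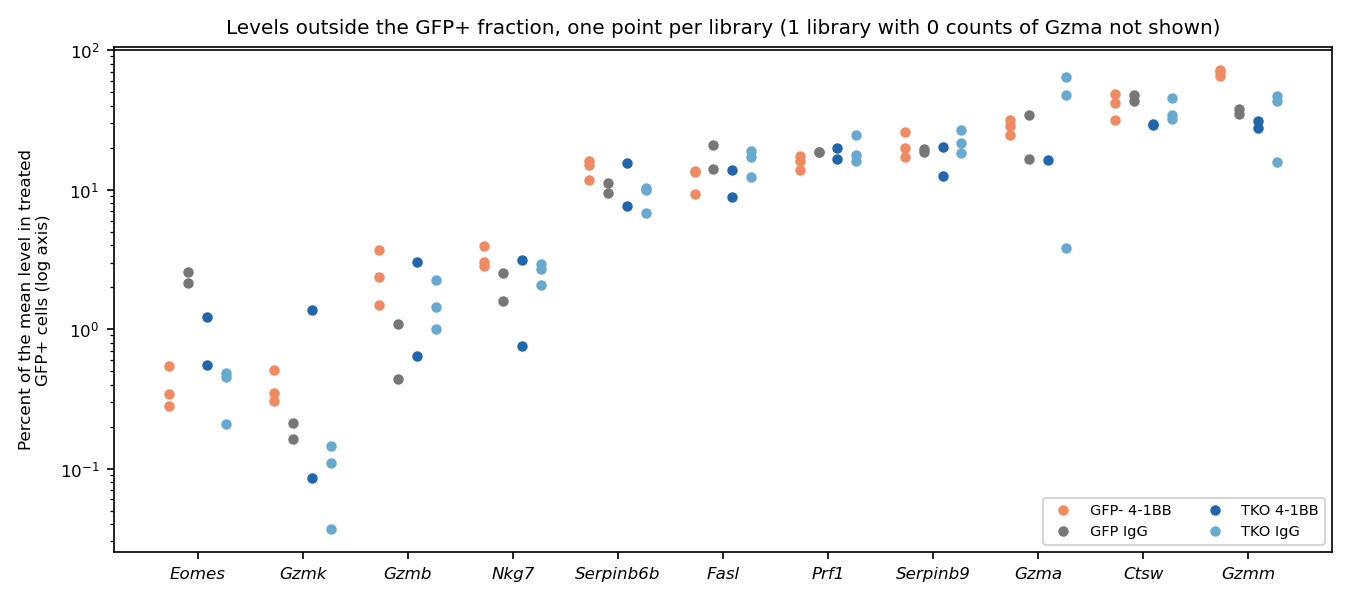
Level of Eomes and of each killing gene in the 10 libraries outside the GFP+ fraction, as a percent of the GFP+ mean on a log axis, 1 point per library coloured by group. Gzmk, Gzmb and Nkg7 lie lowest of the killing genes, and 1 library with 0 counts of Gzma is not drawn.

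Other genes of the killing pathway differed in both directions between GFP+ and GFP- cells, and the counts of each list stand beside 20.7% higher and 16.5% lower among all tested genes. Of 7 tested inhibitors of granzymes and cathepsins 3 were higher and 0 lower, with a median log2 difference of 0.892: Serpina3g by 3.66 on the log2 scale (SE 0.512, adjusted p = 3.29e-04), Cst7, an inhibitor of the cathepsins that process granzymes, by 3.42 (SE 0.315) and Serpina3f by 2.52 (SE 0.69). Serpina3f no longer passed without GFP+ replicate 2 (adjusted p = 0.0599) or without GFP- replicate 3 (0.0584). Of 7 granule proteases and matrix genes 5 were higher and 2 lower, with a median of 0.946, among them Ctsd (1.77, SE 0.142), Ctsb (1.27, SE 0.211) and Srgn, the proteoglycan that packs granzymes (0.97, SE 0.282). Ctsl (-2.08, SE 0.327) and Lamp1 (-0.37, SE 0.123), a granule membrane protein exposed on release, were the 2 lower ones. The calls of Srgn and Lamp1 were lost in 3 and 4 of the 6 fits that left out 1 library.

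Of 18 tested genes for granule transport and release, 11 were higher and 0 lower, with a median log2 difference of 0.459. Sytl3 and Sytl2, which link granules to Rab27a, were higher by 2.84 (SE 0.348) and 2.12 (SE 0.143), and Stx11, a syntaxin needed for granule fusion, by 2.24 (SE 0.266). With upper-quartile scaling 9 of the 18 were higher. The death receptor pathway had 3 higher and 3 lower of 11, near the shares among all tested genes, with a median of -0.0664. Bid (1.47, SE 0.203) and Tnfsf10, the ligand TRAIL (0.96, SE 0.174), were among the higher genes, while Lta (-2.09, SE 0.226), Tnfrsf10b (-2.02, SE 0.306) and Tnf (-1.05, SE 0.163) were lower. With upper-quartile scaling 3 were higher and 5 lower.

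Regulators known to act on killing genes were also tested. Of 14, 8 were higher and 3 lower, with a median of 0.639. The 8 include Eomes, whose reporter defined the fractions, so its call was fixed by the sort. Eomes (8.01, SE 0.301), Prdm1, the factor Blimp-1 (3.50, SE 0.188), and Bhlhe40 (2.26, SE 0.296) were higher by most. Tcf7, a factor of less differentiated T cells (-1.38, SE 0.2), Zbtb7b, the CD4 lineage factor ThPOK (-0.56, SE 0.0947), and Stat5a (-0.47, SE 0.0888) were lower. With the animal as a replicate block, 6 were higher and 4 lower, and with upper-quartile scaling 7 and 5. In the comparison of GFP- with control cells 1 of the 14 was higher, Bhlhe40 by 2.07 (SE 0.358, adjusted p = 0.031), a call lost on leaving out any of its 5 libraries, and 1 lower, Eomes. With edgeR and the filter, the lists held 0 called genes between treatments in Eomes-TKO mice and between treated Eomes-TKO and GFP- cells, and 1 between genotypes, Eomes. Treated Eomes-TKO cells held more Eomes than control ones, by 1.29 (SE 0.375, edgeR adjusted p = 0.674). Against GFP- cells the difference was 1.26 (SE 0.373, edgeR adjusted p = 0.462). DESeq2 called both (adjusted p = 0.0195 and 0.0272), as did edgeR without the filter (1.6e-06 and 4.45e-06). Leaving out 1 library gave 0.54 to 1.69 and 0.51 to 1.66.

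**Figure D5:**
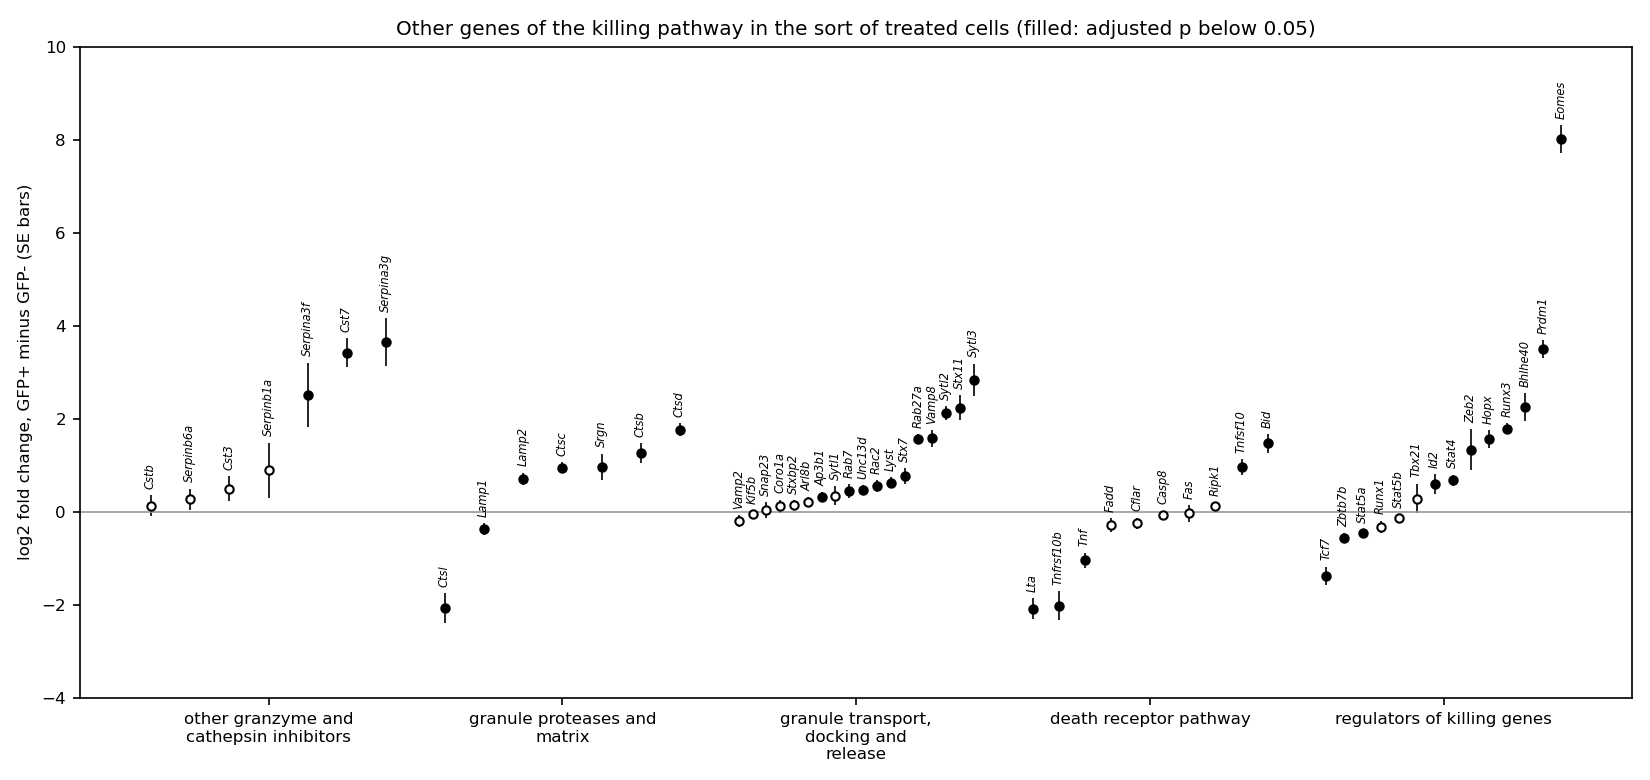
Log2 fold change between GFP+ and GFP- cells for the other tested genes of the pathway, by list, with bars of 1 SE and filled points where the adjusted p was below 0.05; 1 gene of the death receptor pathway is not drawn. No filled point of the transport genes lies below 0, whereas proteases, the death receptor pathway and regulators hold genes in both directions.

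Most marker lists of other cells that carry granzymes were low beside 5 CD4 T cell genes, which summed to 3470 to 3950 CPM in GFP+ and 2420 to 2610 CPM in GFP- cells. Of these 5, the test called 3 higher and 1 lower in GFP+ than in GFP- cells. Among all tested genes 20.7% were higher and 16.5% lower. The lower one was Cd40lg, at 9.78 to 12.2 CPM in GFP+, 56.2 to 74.9 CPM in GFP- and 63.1 to 78.8 CPM in undivided cells. The 2 CD8 genes differed in pattern. Cd8b1 was lower in GFP+ cells, at 1.11, 3.93 and 5.59 CPM against 7.32, 9.87 and 5.96 CPM in GFP- cells (adjusted p = 0.0445). Cd8a held 2.36, 0.262 and 3.76 CPM in GFP+ and 1.10, 2.44 and 0.813 CPM in GFP- cells, which overlapped, but only 1 count over both undivided Eomes-GFP control libraries, and it passed as higher in GFP+ than in those (adjusted p = 0.0118). Trdc, the gamma-delta T cell gene found in the table of 4 listed, held 23.4, 15.7 and 5.27 CPM in GFP+ and 7.41 to 9.75 CPM in GFP- cells, which overlapped (adjusted p = 0.132). The part of CD8 and gamma-delta T cells in the results was not tested. The 7 NK genes summed to 2.36 to 4.08 CPM in GFP+ and 1.90 to 5.60 CPM in GFP- cells, with Ncr1 and Klra4 at 0 in GFP+ cells. In undivided cells the NK genes summed to 5.31 to 13.9 CPM, most of it Klrb1c. The mean of Klrb1c was 0.495 CPM in GFP+, 1.49 CPM in GFP- and 6.83 CPM in undivided Eomes-GFP control cells. The 3 genes of plasmacytoid dendritic cells summed to 13.2 to 19.7 CPM in GFP+ and 26.7 to 37.2 CPM in GFP- cells. The sum of 4 mast cell and basophil genes did not exceed 0.416 CPM in any library. The 4 myeloid genes did move with the sort, with sums of 47.9 to 64.2 CPM in GFP+, 15.0 to 27.8 CPM in GFP- and 9.16 to 17.6 CPM in undivided cells, and their part in the results was not tested. Of these 4, Cd68 and Itgam passed the test between the fractions, whereas Lyz2 and Csf1r did not. Against the undivided control, where Lyz2 held 0.196 and 0.509 CPM, Lyz2 was higher in GFP+ cells (5.68 to 21.2 CPM, adjusted p = 4.03e-04) and in GFP- cells (4.51 to 12.9 CPM, adjusted p = 0.0299). The regulatory T cell list summed to 544 to 626 CPM in GFP+ and 64.0 to 102 CPM in GFP- cells, nearly all of it Ikzf2, while Foxp3 held 0.393 to 0.554 CPM in GFP+ and 1.10 to 1.95 CPM in GFP- cells. The part of Ikzf2-expressing cells in the results was not tested.

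Over the 13 libraries, the genes whose log2 level was most like each member were named as a description, out of 10542 genes. These likenesses are set mainly by the 3 GFP+ libraries against the other 10, and the libraries share that split. Gzmk was most like Mical1 (r = 0.992), Hip1r (0.990) and Mcm6 (0.988), and Gzmb most like Eif4enif1 (0.990), Stk39 (0.988) and Gdi2 (0.986). Nkg7 was most like Il2rb (0.997), a chain of the receptors for the cytokines IL-2 and IL-15, Mif4gd (0.996) and Efhd2 (0.994). Prf1 was most like Rbl2 (0.995), Spn (0.991) and Entpd1 (0.990), and Fasl most like Acsbg1 (0.984), Slamf7 (0.983) and Dennd4c (0.983). Serpinb9 was nearest to Pik3ap1 (0.992), Ap1s2 (0.990) and Il2rb (0.988), Serpinb6b to Ghitm (0.996) and Mcm6 (0.996), and Ctsw to Abi2 (0.977), Prkcd (0.977) and Lasp1 (0.971). Gzma and Gzmm had weaker nearest genes, Traf3ip1 (0.837), Zcchc2 (0.828) and Plekhf2 (0.827) for Gzma and Becn1 (0.899), Klhdc4 (0.877) and Cep152 (0.875) for Gzmm.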

How the data were processed

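Total RNA of 13 libraries of sorted spleen CD4+ T cells was sequenced. Values are estimated counts for each gene as deposited by the authors. The submitters' processing notes name STAR 2.7.10a, cutadapt 3.4, Salmon 1.5.2, the GRCm39 build and Trim Galore 0.6.7. Strandedness is not given in the sources used here. Values were rounded. The table's other 34 library columns were not used.

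Groups came from the labels. Totals ran from 6080975 to 10881146 counts per library, and 3 counts equal 0.271 to 0.468 CPM, which covers counting error only. Testing used edgeR 4.0.16 under R 4.3.3 (TMM, filterByExpr, robust quasi-likelihood test, Benjamini-Hochberg adjustment over 14059 genes, threshold 0.05, two-sided), with all 13 libraries in 1 model of 5 groups and 8 residual degrees of freedom. The standard error (SE) of a log2 fold change is its size over the root of its F statistic. Levels are TMM-scaled CPM, and SD is the standard deviation over libraries. The test was also run on simulated data, and that run is not used as support for the results.

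Transcript lengths came from GENCODE M21 on GRCm38, the build of all coordinates given, and promoters from RefSeq. All members were named in each comparison, as were, from each pathway list, up to 3 called genes that changed most in each direction (mean log2 CPM from 2 upwards), and the 3 genes most correlated with each member (prior count 2). Members and lists were chosen with earlier results of these data known.

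GFP+ and GFP- libraries of the same number share a library prefix, read as the animal, which gives 10 animals. Within these pairs, deviations from group means had correlations of 0.32, 0.11 and 0.061, against -0.25 to 0.15 for other pairs. Alternatives were upper-quartile and RLE scaling, DESeq2 1.42.0, no filter, each pair of groups fitted alone, a block for the animal or replicate number, and leaving out each library. One gene of the lists is not reported here by name.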

Additional observations from a re-analysis of the deposited data

How the results depend on the processing

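Of 70 fold changes of the 10 genes over 7 comparisons, 25 passed the test. All 25 lie in comparisons that use the same GFP+ libraries, so they are not independent results. Of 283 alternatives run for these 25 fold changes, 282 kept direction and call, 1 lost the call (Gzma between treated Eomes-TKO and GFP+ cells, given above) and 0 reversed. With the animal or replicate number as a replicate block, 8, 8, 0, 0, 0, 0 and 9 of the 10 genes were called in the 7 comparisons, as without it.

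Without the filter on low counts, 2 genes were called higher between GFP- and control cells, 1 higher (Gzmk) and 1 lower (Gzma) between treatments in Eomes-TKO mice, and 1 higher (Gzmk) and 1 lower (Nkg7) between treated Eomes-TKO and GFP- cells. Of all 23638 genes then tested, 434 were higher and 87 lower, 224 and 34, and 74 and 146, in the same order. Leaving out 1 library gave 0 to 1 genes called higher in each of the last 2 comparisons.

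Of 45 fold changes that did not pass, 15 changed sign at least once. Between genotypes under control IgG, Gzmm was at 0.0017, at -0.0019 with DESeq2 and at -0.031 with the replicate block, and leaving out 1 library gave -0.24 to 0.32 for Gzmm, -0.016 to 1.18 for Gzma, -0.15 to 0.19 for Prf1 and -0.37 to 0.20 for Fasl. Between GFP- and control cells it gave -0.28 to 0.76 for Gzma and -0.033 to 0.27 for Serpinb9. Between treatments in Eomes-TKO mice it gave -1.30 to 0.91 for Gzmb, -0.22 to 3.72 for Gzmk, -0.24 to 0.12 for Prf1, -1.76 to 0.28 for Nkg7 and -0.26 to 0.76 for Serpinb6b. Between treated Eomes-TKO and GFP- cells it gave -1.91 to 0.29 for Gzmb, -2.10 to 1.84 for Gzmk, -0.45 to 0.18 for Fasl and -0.91 to 0.11 for Serpinb6b. The cause was not tested.

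Upper-quartile scaling moved the median log2 fold change of all genes to -0.116 for GFP+ against GFP-, -0.138 for GFP+ against control and 0.162 for treated Eomes-TKO against GFP+ cells. Calls then split into 2186 higher and 3095 lower (2905 and 2315 with TMM), 2130 and 2950 (2642 and 2167) and 3126 and 2019 (2214 and 2645). Calls over all genes between the other groups ranged widely in both directions. For GFP- against control, edgeR with the filter had 92 higher and 15 lower. DESeq2 had 250 and 47, and edgeR without the filter 434 and 87, but leaving out GFP- replicate 1 gave 13 and 3. For treatment in Eomes-TKO mice, edgeR with the filter had 6 and 0. DESeq2 had 61 and 2, and edgeR without the filter 224 and 34. Fitting these groups alone gave 0 and 0, as did leaving out replicate 2 of the control cells. The same alternatives, chosen after seeing the data for Eomes and the named pathway genes, kept 769 of 804 results of 71 called fold changes, lost 35 and reversed 0.

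Groups of 2 libraries and levels near 1 CPM limit Gzma, Gzmm and, outside the GFP+ fraction, Gzmk and Gzmb. Differences smaller than their errors were not detectable here, and some larger than their SE did not pass either. Gzma between the fractions, at 1.82 (SE 0.703, edgeR adjusted p = 0.0598), is an example. The planned comparison of protein sequences was not run.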

Other observations

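The span of Gzmk on GRCm38 overlaps Esm1, a secreted proteoglycan gene on the opposite strand, by 8440 bases, with 0 exons of Gzmk overlapping an exon of Esm1. Esm1 was looked at after its values were seen. It stood at 31.0 ± 5.78 CPM (SD, n = 3) in GFP+ cells, from 187 to 308 counts per library, and at 0 to 8 counts in each of the other 10 libraries. Between GFP+ and GFP- cells its log2 fold change was 5.80 (edgeR adjusted p = 2.59e-07). Whether reads of the 2 genes were shared was not tested.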
